A study of Mus musculus with 36 samples.

Results

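The genes described here encode the proteins of the mitochondrial ribosome, and were taken as every symbol that begins with Mrpl or Mrps and a digit, pseudogene symbols left out. The rule gave 76 genes of the 23352 entries measured, and all 76 were among the 10599 genes tested. By the known structure 49 belong to the large subunit, which includes Mrps18a and Mrps30 in spite of their symbols, and 26 to the small subunit. Mrps36 fits the rule by its symbol but is now known as a subunit of the 2-oxoglutarate dehydrogenase complex.

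The mitochondrial ribosome translates the few messages of the mitochondrial genome, all of which encode core subunits of the respiratory chain and ATP synthase. Its ribosomal RNAs come from the mitochondrial genome, while its proteins are encoded in the nucleus, made in the cytosol and imported. Some of these proteins descend from bacterial ribosomal proteins, and others were added in the mitochondrial lineage. Heart muscle is rich in mitochondria, and inherited defects of several of these proteins, among them MRPL3, MRPL44, MRPS22 and MRPS14, are known to cause cardiomyopathy in people.

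RNA came from the heart apex of male C57BL/6J mice of 11 to 12 weeks kept in 12 h of light and 12 h of dark. The hearts named cK15 are labelled as knockouts of KLF15, a Kruppel-like zinc finger transcription factor, and the controls carry alpha-MHC cre, in which a promoter of heart muscle cells drives the recombinase. The labels do not say whether the cK15 mice also carry cre. Hearts were taken every 4 h, from 12 am and 4 am through 8 am and 12 pm to 4 pm and 8 pm. There are 3 libraries for each time and genotype, 18 a genotype and 36 in all. The libraries were stranded and depleted of ribosomal RNA. The values are FPKM (fragments scaled to gene length and library total), and differences are in log2(FPKM + 1), where 1 unit is a doubling for well expressed genes. The depth of the libraries is unknown.

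Klf15 itself ran from 0.406 to 2.91 FPKM in the control libraries and was listed at 0 in 13 of 18 cK15 libraries, with 0.326 the highest of the others. The groups did not overlap. In 12 libraries, 1 in each group, 16.1 to 17.7% of the summed FPKM fell to the 10 genes of highest level, and in the other 24 libraries 21.7 to 25.03% did. Both sets are balanced over genotype and time. The 12 are replicate 1 in cK15 and replicate 2 in control at 5 times, but replicate 4 in both genotypes at 8 pm. Whether replicate numbers were exchanged at 8 pm was not tested; the numbers are used as labelled, and values by replicate series, with a series left out or with a block of numbers rest on them. Sums of heart muscle markers ran from 56170 to 101700 FPKM in control and from 55570 to 113900 in cK15, and those of lymphocyte markers stayed at or below 3.30 FPKM.

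The promoters of the member that rose most and of the member that fell most in cK15 hearts are shown first, because both hold the CCACCC box that Kruppel-like factors are known to bind. The sequences are the 250 bases before the RefSeq start on GRCm38.p6, 5′ to 3′ on the plus strand, with the matches in capitals. Those of Mrps23 span chr11:88204138-88204387, and those of Mrpl55 span chr11:59202236-59202485. The far end of the Mrpl55 window overlaps an exon of the noncoding gene 2610507I01Rik.
Mrps23: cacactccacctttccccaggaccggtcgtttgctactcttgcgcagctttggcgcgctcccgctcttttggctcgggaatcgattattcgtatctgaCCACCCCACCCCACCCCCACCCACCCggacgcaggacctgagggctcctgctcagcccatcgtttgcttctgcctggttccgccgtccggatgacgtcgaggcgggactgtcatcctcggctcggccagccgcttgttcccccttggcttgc
Mrpl55: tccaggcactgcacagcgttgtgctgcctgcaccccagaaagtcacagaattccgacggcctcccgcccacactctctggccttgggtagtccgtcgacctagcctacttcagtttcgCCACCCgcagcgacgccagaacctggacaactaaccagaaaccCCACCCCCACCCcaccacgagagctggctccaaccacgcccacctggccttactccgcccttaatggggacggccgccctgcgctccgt
The Mrps23 window holds 5 matches in 1 run, which begin 152, 147, 142, 136 and 132 bases before the start, some of them overlapping. The Mrpl55 window holds 3, which begin 132, 89 and 83 bases before the start. Mrpl46 and Mrps11 are transcribed away from each other on chromosome 7, and the 41 bases between their RefSeq starts, chr7:78783090-78783130, hold none of the motifs searched. The longer promoter window of Mrps11, searched below, holds a YY1 match.
Mrpl46 and Mrps11: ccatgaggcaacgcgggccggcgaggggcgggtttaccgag

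RefSeq promoters (250 bases before to 50 after the start) were held for 67 of the 76 genes, 73 promoters in all, and were searched on both strands for 4 motifs. CCACCC was found in 26% of the members' promoters, against 36.5% of the 10213 promoters of tested genes and 31.5% of all 32851. The ETS motif CCGGAAG, the site type of the nuclear respiratory factor NRF-2 (GABP), was found in 32.9%, against 17.4% and 8.86%. The motif of the nuclear respiratory factor NRF1 was found in 16.4%, against 10% and 4.60%. The YY1 motif AAGATGGCG was found in 11.0%, against 3.07% and 1.40%. All 3 factors are known regulators of nuclear genes for mitochondrial proteins, and 39 members held at least 1 of the 3 motifs. The shares are a description, and a match is not evidence of binding. Among the members called below, the ETS motif stood in the promoters of Mrps23, Mrpl3, Mrps18a, Mrpl21 and Mrpl33 (in Mrps23 after the start, beyond the bases printed). CCACCC stood in those of Mrps23, Mrps18a and Mrpl55, and the YY1 motif in that of Mrps18a. The NRF1 motif stood in none of the called members' promoters.

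The members are spread over 17 chromosomes, with 10 on chromosome 11 and 8 on chromosome 17. By GENCODE on GRCm38, 32 of them (42.1%) have a protein-coding gene that starts on the opposite strand within 1000 bp of their own start, against 16.8% of the 9712 protein-coding genes tested. Their longest annotated transcripts are short, with a median of 1302 bases against 3095 for the tested genes, at a GC content of 50.5% against 50.1%. Bodies of 26 members overlap another protein-coding gene, 23 on the opposite strand and 4 on the same strand. The sources used here do not say whether counting used the strand, so values in such overlaps are uncertain. Mrps6 with Slc5a3, Mrps24 with Urgcp, Mrps34 with Nme3 and Mrpl53 with Gm42688 share a strand, where the strand cannot separate them. How reads shared with the processed pseudogenes of these families were counted is not given either.

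Nearly all of the members were well expressed in the heart. The median member stood at 43.5 FPKM, against 8.57 FPKM for the median tested gene. Of the 76, 17 were above 100 FPKM, 50 between 10 and 100, and 9 below 10. Although ribosomes hold most of their proteins in equal copies, the messages differed widely in level: Mrpl42 took 14.1% of all the members' FPKM, and the 4 highest members took 30.5%.

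**Figure D1:**
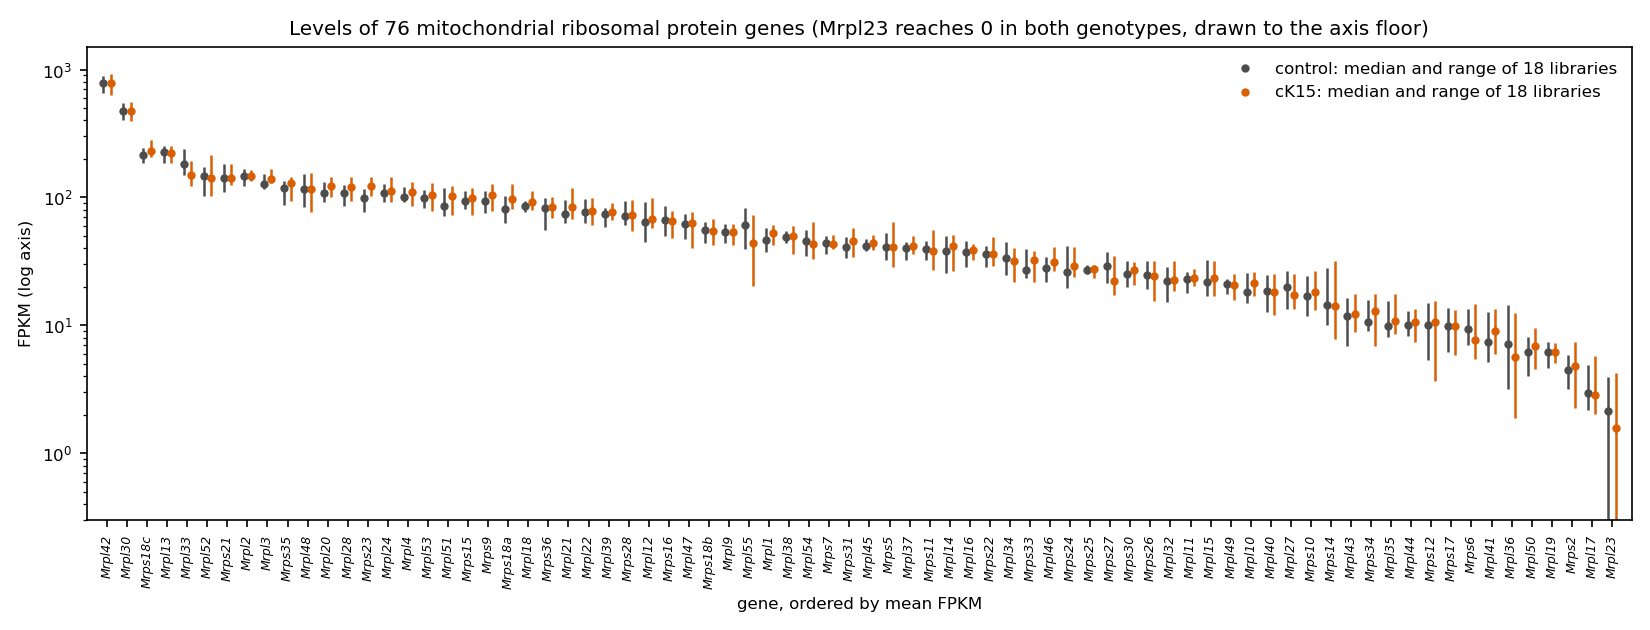
FPKM (log axis) of the 76 genes, ordered by mean level, with the median (point) and range (line) of the 18 control and 18 cK15 libraries. Levels run from 1.89 FPKM for Mrpl23 to 790.7 FPKM for Mrpl42, and the ranges of the genotypes overlap for every gene.

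The 4 highest were Mrpl42, Mrpl30, Mrps18c and Mrpl13. Mrpl42, a protein of the mitochondrial lineage in the large subunit, had a lowest, median and highest value of 658.6, 783.7 and 893 FPKM in control and 637, 782.3 and 923.5 FPKM in cK15. Mrpl30, homologue of bacterial L30, had 402.5, 473.8 and 549.4 FPKM in control and 395, 472.1 and 556.1 FPKM in cK15. The ranges of both genes nearly coincide between genotypes. Mrps18c and Mrpl13 had means of 225.6 and 221.2 FPKM over the 36 libraries. Their within-genotype SDs, 13.9 and 22.3 FPKM for Mrps18c and 21.2 and 22.2 FPKM for Mrpl13, exceed the gap, so their order is not settled.

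The 4 lowest were Mrpl19, Mrps2, Mrpl17 and Mrpl23, at means of 6.15, 4.65, 3.38 and 1.89 FPKM. Mrpl23, which lines the exit of the polypeptide tunnel, was the only member listed at 0 in any library, 1 control and 2 cK15. The longest GENCODE transcript of Mrpl17 is 7300 bases, the longest of all 76. FPKM divides by gene length, and the length that the authors used for Mrpl17 is not stated.

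By class, the median level was 52.8 FPKM for the 30 large-subunit proteins with bacterial homologues and 43.2 FPKM for the 19 of the mitochondrial lineage. In the small subunit it was 42.8 FPKM for the 17 with bacterial homologues and 30.3 FPKM for the 9 of the mitochondrial lineage. The classes overlap from end to end. Mrps36 stood at 84.2 FPKM.

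Levels were also uneven within single structural regions. Around the stalk that recruits translation factors, Mrpl53 stood at 101.2 and Mrpl12, the homologue of bacterial L7/L12, at 71.3 FPKM. Mrpl54, Mrpl11 and Mrpl10 stood at 46.7, 23.1 and 20.3 FPKM. At the tunnel exit and membrane anchor, Mrpl24, Mrpl22, Mrpl47 and Mrpl45 ranged from 43.2 to 111.3 FPKM, while Mrpl44, Mrpl17 and Mrpl23 ranged from 1.89 to 10.4. In the central protuberance the levels were 115.5 FPKM for Mrpl48, 90.3 for Mrpl18, 49.3 for Mrpl38, 29.7 for Mrpl46, 18.6 for Mrpl40 and 18.5 for Mrpl27. Near the decoding centre and the entry of the message they were 74.6 FPKM for Mrps28, 42.8 for Mrps5, 29.3 for Mrps24, 10.3 for Mrps12 and 4.65 for Mrps2.

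Averaged over the 6 times, 7 of the 76 members (9.21%) differed between genotypes at a limma adjusted p under 0.05, against a background of 11.2% of all tested genes. Mrps23, Mrps18a, Mrpl21, Mrpl46 and Mrpl3 rose in cK15 hearts, and Mrpl55 and Mrpl33 fell. Over all tested genes 4.06% rose and 7.18% fell. The share of members called was thus near the background. Under median-ratio rescaling the split was 9 higher and 1 lower, and under quantile normalization 8 higher and 1 lower. The shares of all genes called in those fits are not given here, so these splits are not read as a trait of the members. No member separated the 18 cK15 from the 18 control libraries, which 0.623% of tested genes did.

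The differences were small, and most had the same sign. The estimate was positive for 58 of 76 members (76.3%), against 45.8% of all tested genes, with a median of 0.06 against -0.01. Estimates ran from -0.46 to 0.27. At an unadjusted p under 0.05 there were 17 members higher and 3 lower, the latter Mrpl55, Mrpl33 and Mrps27. Of all 10599 tested genes, 2463 reached that threshold, 944 higher and 1519 lower. The counts of members rested in part on 1 series of libraries. Without cK15 replicate 3, 42 members were positive with a median of 0.01, where 48.3% of all genes were positive. In that setting 2 members were called, Mrps23 (0.19) and Mrpl54 (-0.19). Mrpl54, a protein near the stalk, stood at -0.01 over all libraries. Without control replicate 4, 2 were called, Mrps23 (0.26) and Mrpl3, both higher. With control replicate 2 left out, 47 members were positive, but their median was 0.07, and 51.3% of all genes were positive.

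**Figure D2:**
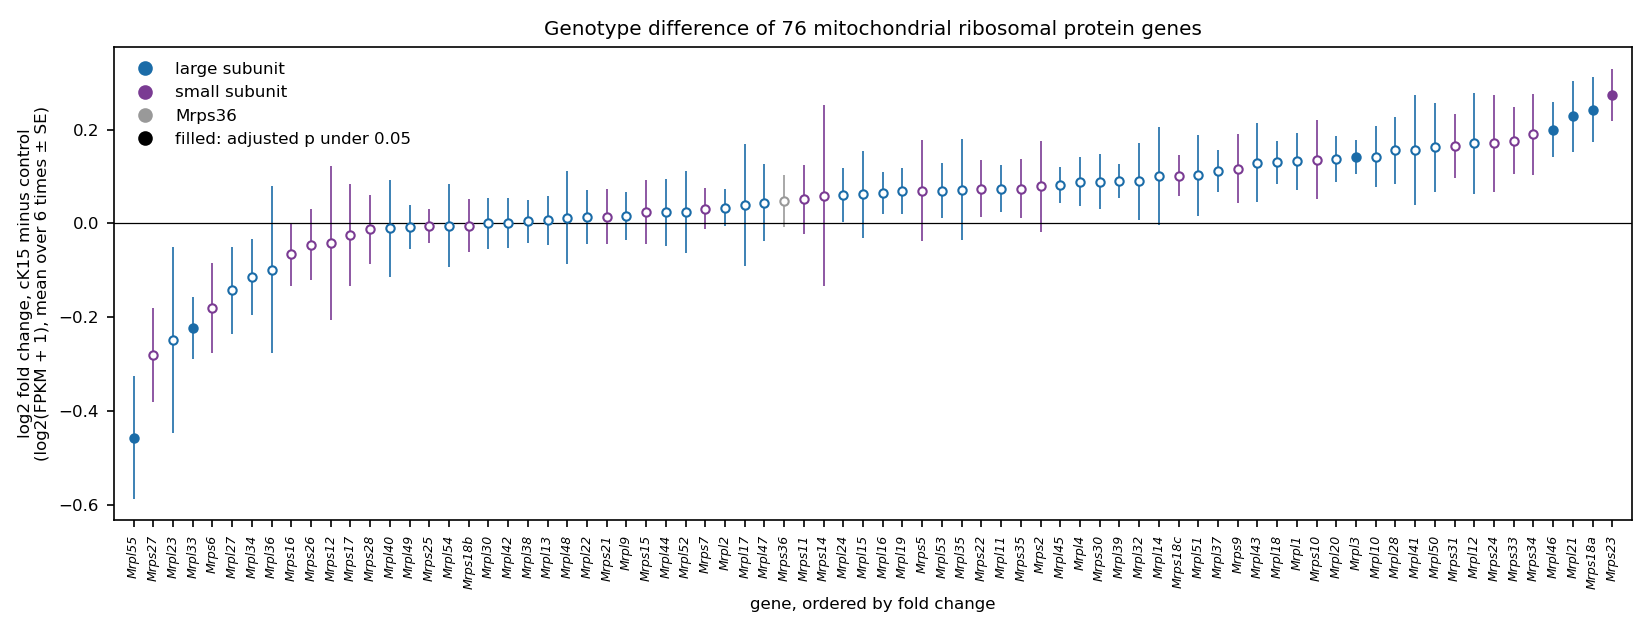
Log2 fold change of each of the 76 genes, cK15 minus control, averaged over the 6 times, with its standard error and ordered by size. Filled points passed the adjusted threshold, and 58 of 76 points lie above 0.

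Replicate numbers 3 and 4 occur in both genotypes, and libraries of the same number and time deviated together. With these pairs as a block, 16 members were called, 13 higher and 3 lower, and the share of all genes called in that fit is not given here. With the libraries of each number within a genotype treated as 1 series, Mrps23 alone was called. Within the 24 libraries 58 members were positive with a median of 0.07, and within the 12 that stand apart 48 were, with a median of 0.04. Of all genes 46.6 and 44.8% were positive there.

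**Figure D3:**
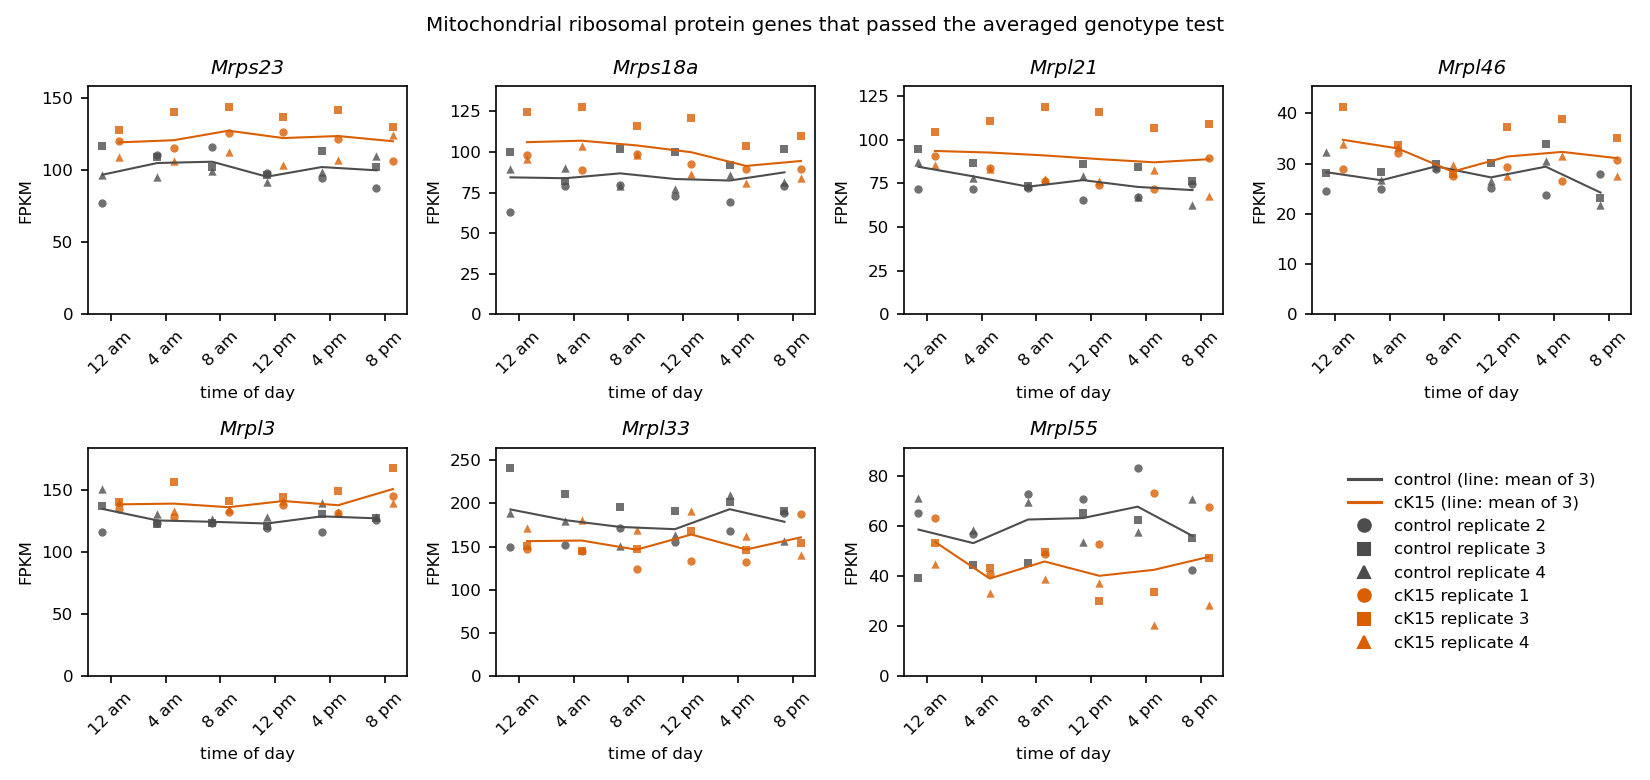
FPKM of the 7 called members in each library by time of day, with lines through the means of 3 libraries per group. The libraries of cK15 replicate 3 lie at the top for Mrps23, Mrps18a and Mrpl21 at each time, and the genotypes overlap for every gene over the day.

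Mrps23, a small-subunit protein of the mitochondrial lineage (chromosome 11, 88204388 to 88211507, GRCm38), rose the most. Its lowest, median and highest values were 77.1, 98.9 and 116.6 FPKM in control and 103.5, 122.9 and 143.9 FPKM in cK15. All 18 cK15 libraries lay above the control median, and 11 above the highest control library. The mean was 100.8 ± 10.4 FPKM in control and 122.2 ± 13.1 FPKM in cK15 (SD, n = 18 each), a log2 difference of 0.27 (SE 0.056; limma adjusted p = 0.00107) with the same sign at 6 of 6 times. It was the only member whose call held in all 17 other settings, where the difference ran from 0.19 without cK15 replicate 3 to 0.34 without cK15 replicate 4.

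Mrpl3, the homologue of bacterial L3 near the peptidyl transferase centre (chromosome 9, 105053239 to 105079888), had the smallest standard error of the 7. Its lowest, median and highest values were 116.3, 126.6 and 151.4 FPKM in control and 128.6, 140.1 and 167.9 FPKM in cK15. All 18 cK15 libraries lay above the control median, but only 2 above the highest control library, a value of 12 am. The mean went from 127.5 ± 8.60 to 140.8 ± 9.68 FPKM (SD, n = 18 each), a log2 difference of 0.14 (SE 0.037; limma adjusted p = 0.00887). The call ended without cK15 replicate 3 (0.10), control replicate 2 (0.11) or control replicate 3 (0.14).

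Mrps18a, which sits in the large subunit (chromosome 17, 46110986 to 46128910, overlapping Rsph9 on the other strand), had 63.1, 81.8 and 101.8 FPKM in control and 81.1, 98.0 and 127.8 FPKM in cK15 as lowest, median and highest. The groups overlap over the upper part of the control range, and 17 of 18 cK15 libraries lay above the control median. The mean went from 84.7 ± 11.4 to 100.4 ± 14.2 FPKM (SD, n = 18 each), a log2 difference of 0.24 (SE 0.070; limma adjusted p = 0.0206). The call ended without cK15 replicate 3 (0.13), control replicate 2 (0.15) or control replicate 4 (0.24), and without the 12 libraries that stand apart (0.21).

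Mrpl46, a protein of the central protuberance (chromosome 7, 78775236 to 78783531), had 21.7, 28.0 and 33.9 FPKM in control and 26.5, 31.1 and 41.3 FPKM in cK15 as lowest, median and highest. The ranges overlap widely, with 13 of 18 cK15 libraries above the control median. The mean went from 27.6 ± 3.28 to 31.8 ± 4.26 FPKM (SD, n = 18 each), a log2 difference of 0.20 (SE 0.059; limma adjusted p = 0.0236) with that sign at 5 of 6 times. The call ended without cK15 replicate 3 (0.12), control replicate 2 (0.16) or control replicate 4 (0.21). Its neighbour Mrps11, on the far side of the 41 bases printed above, went from 39.0 ± 4.80 to 40.8 ± 7.27 FPKM (SD, n = 18 each; log2 difference 0.05, limma adjusted p = 0.764). Annotated transcripts of the pair overlap, and the difference between the neighbours was not tested.

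Mrpl21, the homologue of bacterial L21 (chromosome 19, 3282901 to 3292837, overlapping Ighmbp2 on the other strand), had 62.8, 74.0 and 94.6 FPKM in control and 67.9, 84.8 and 118.8 FPKM in cK15 as lowest, median and highest. The 6 libraries of cK15 replicate 3 lay between 104.4 and 118.8 FPKM, above every other library of either genotype, while cK15 replicates 1 and 4 had means of 81.1 and 78.9 FPKM. Over all libraries the mean went from 76.2 ± 8.64 to 90.3 ± 16.3 FPKM (SD, n = 18 each), a log2 difference of 0.23 (SE 0.075; limma adjusted p = 0.0467). Without cK15 replicate 3 the difference was 0.07 and the call ended, as it did without control replicate 2 (0.18) or control replicate 4 (0.21). The call also ended without the 12 libraries that stand apart (0.26) and with small changes of method, such as median-ratio rescaling or no filter on low values.

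Mrpl55, the homologue of bacterial L31 (chromosome 11, 59202486 to 59206134), fell the most. Its lowest, median and highest values were 39.4, 60.5 and 83.3 FPKM in control and 20.5, 44.0 and 73.4 FPKM in cK15. Of the cK15 libraries 7 lay below the lowest control library and 3 above the control median. The mean went from 60.3 ± 12.2 to 44.9 ± 13.9 FPKM (SD, n = 18 each), a log2 difference of -0.46 (SE 0.13; limma adjusted p = 0.0196) with the same sign at 6 of 6 times. The series of cK15 were spread, with means of 57.8, 42.9 and 33.9 FPKM for replicates 1, 3 and 4. The call ended without cK15 replicate 3 (-0.44), cK15 replicate 4 (-0.27), control replicate 2 (-0.40) or control replicate 4 (-0.41).

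Mrpl33, the homologue of bacterial L33 (chromosome 5, 31596935 to 31664384, overlapping Rbks on the other strand), had 149.7, 184.1 and 240.9 FPKM in control and 123.5, 148.9 and 191.4 FPKM in cK15 as lowest, median and highest. Of the cK15 libraries 9 lay below the lowest control library and 2 above the control median. The mean went from 181.5 ± 25.3 to 155.2 ± 19.4 FPKM (SD, n = 18 each), a log2 difference of -0.22 (SE 0.067; limma adjusted p = 0.0273). The call ended without control replicate 3 (-0.13), control replicate 4 (-0.25), cK15 replicate 1 (-0.17) or cK15 replicate 3 (-0.21), and under median-ratio rescaling (-0.20) and quantile normalization (-0.19).

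Just outside the threshold stood Mrpl18, which binds 5S ribosomal RNA in bacterial ribosomes, at a log2 difference of 0.13 (limma adjusted p = 0.0627), and Mrpl20 at 0.14 (limma adjusted p = 0.0665). Mrpl18 passed the threshold in 6 of 17 other settings: without the 12 libraries (0.15), with a term for the library set, with either block of numbers between genotypes (0.14 in each), under quantile normalization and without cK15 replicate 1 (0.18). Mrps27, a small-subunit protein of the mitochondrial lineage, stood at -0.28 (limma adjusted p = 0.0720). Among members whose human counterparts are linked to cardiomyopathy, Mrpl3 was called and the other 3 were not: the difference was 0.07 for Mrps22, 0.06 for Mrps14 and 0.02 for Mrpl44, and each of the 3 changed sign when single series were left out.

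By class, 6 of 49 large-subunit genes were called (4 higher, 2 lower) and 40 had a positive estimate. In the small subunit 1 of 26 was called, higher, and 17 were positive. Both shares of calls, 12.2% and 3.85%, are read against the same 11.2% of all genes, and the difference between subunits was not tested. Of the 5 stalk genes 0 were called and 4 were positive, with estimates from -0.01 to 0.17. Of the 7 genes at the tunnel exit and membrane anchor 0 were called and 6 were positive, from -0.25 to 0.08. In the central protuberance Mrpl46 was the 1 called of 6, and near the decoding centre 0 of 5 were, with 0 at an unadjusted p under 0.05. Of these 12 uncalled stalk and tunnel genes, 2 reached an unadjusted p under 0.05, as did 2463 of all 10599 tested genes.

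The hearts were measured in bulk, where fewer cells of a type and less RNA per cell cannot be told apart. Markers of some other cells moved with the genotype. Of 6 tested fibroblast markers 5 fell (summed level 1355 to 1748 FPKM in control, 1161 to 1540 in cK15), as did 7 of 9 macrophage markers (179.0 to 274.2 and 159.0 to 252.1 FPKM). Called lower were also 1 of 5 smooth muscle and pericyte markers, of which 2 had positive estimates, and 1 of 3 atrial markers. The atrial estimates went both ways, from -0.77 to 0.56. The summed atrial level was 40.2 to 213.9 FPKM in control and 76.7 to 394 in cK15. Of 7 endothelial, 3 blood and 1 adipocyte markers 0 were called, though all 7 endothelial estimates were below 0. Of 8 heart muscle markers 3 rose, Ckm, Ryr2 and Actc1. None of the markers was at 0 throughout. Their part in the small differences of the ribosomal genes was not tested.

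The 76 genes together took 0.898 ± 0.0193% of the summed FPKM in control and 0.920 ± 0.0271% in cK15 (SD, n = 18 each). The ranges, 0.870 to 0.932% and 0.873 to 0.963%, overlap over most of their length. The series of cK15 differed by more than the genotypes did: cK15 replicates 1, 3 and 4 had means of 0.935, 0.934 and 0.892%, and control replicates 2, 3 and 4 had 0.906, 0.889 and 0.899%.

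**Figure D4:**
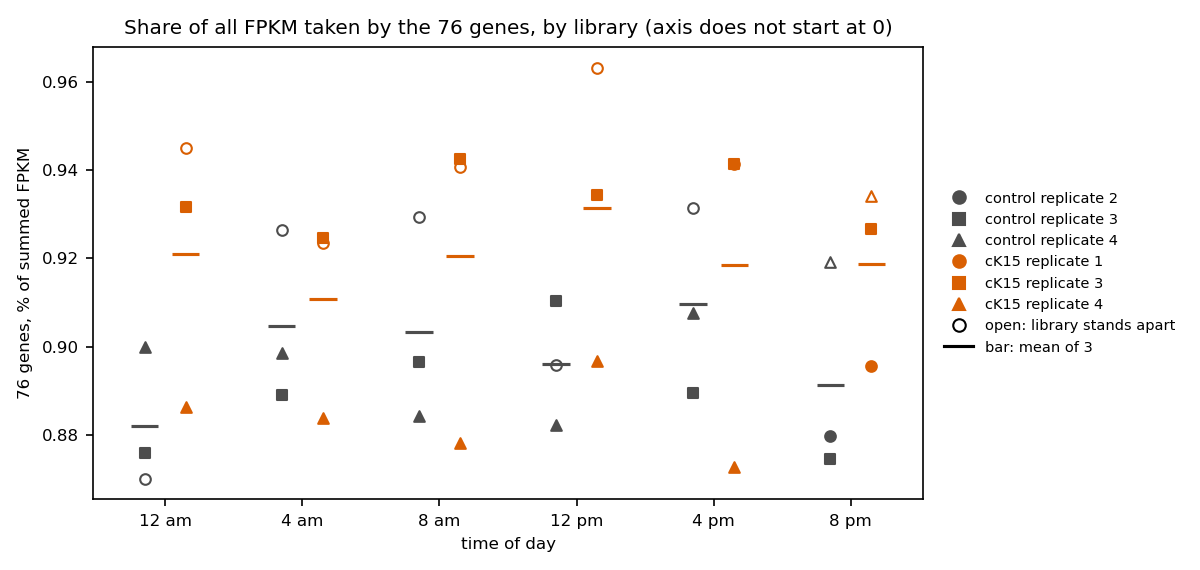
Share of the summed FPKM taken by the 76 genes in each library, by time of day and genotype, with bars at the mean of 3 and an axis that does not start at 0. The cK15 mean is above the control mean at each time, while the libraries of the genotypes overlap and cK15 replicate 4 lies at or below 0.897% except at 8 pm, where it is the library that stands apart.

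At single times 0 of 76 members were called by limma, where 1.21, 1.12, 1.06, 0.745, 1.30 and 1.12% of all genes were, from 12 am to 8 pm. The counts at an unadjusted p under 0.05 were 1, 4, 0, 3, 2 and 5 members. Of all 10599 genes, 767, 831, 792, 615, 893 and 813 reached it. The 3 cK15 and 3 control libraries of a time did not overlap for 3, 7, 3, 9, 1 and 7 members, against 11.3, 11.2, 10.9, 10.5, 11.9 and 11.0% of all genes. Only at 12 pm was the share of members as high as that of all genes. The median estimate of the members was above 0 at each time, between 0.02 at 4 pm and 0.10 at 8 pm.

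Some members had estimates at 1 time that were far above their averaged value, without passing the threshold. At 4 am Mrpl50, a large-subunit protein of the mitochondrial lineage, was at 5.77, 4.56 and 4.31 FPKM in control and 9.50, 8.41 and 6.47 FPKM in cK15. The groups did not overlap (log2 difference 0.63, SE 0.23; limma adjusted p = 0.335), and its averaged difference was 0.16. At 8 pm Mrpl43, also of the mitochondrial lineage, was at 8.17, 9.30 and 10.7 FPKM in control and 11.6, 17.4 and 15.3 FPKM in cK15. These groups did not overlap either (log2 difference 0.59, SE 0.21; limma adjusted p = 0.242). At 4 pm Mrpl55 was at 83.3, 62.7 and 57.7 FPKM in control and 73.4, 33.8 and 20.5 FPKM in cK15, overlapping through cK15 replicate 1 (log2 difference -0.83, SE 0.32; limma adjusted p = 0.337). Without that series the difference of Mrpl55 at 4 pm was -1.31 and passed the threshold.

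The other members with the 3 smallest p-values of a time were these. At 12 am they were Mrps23 (0.31), Mrps18a (0.34) and Mrpl46 (0.28). Mrpl45 (0.22), which anchors the ribosome to the inner membrane, and Mrps34 (0.46) followed Mrpl50 at 4 am. Mrps23 (0.26), Mrpl14 (0.48) and Mrps22 (0.27) led at 8 am. Mrps23 (0.34), Mrpl3 (0.20) and Mrpl55 (-0.67) led at 12 pm. Mrpl33 (-0.40) and Mrpl34 (-0.40) followed Mrpl55 at 4 pm, and Mrpl3 (0.24) and Mrpl46 (0.35) followed Mrpl43 at 8 pm. The test of whether the genotype difference varies with time called 1 gene of all 10599 and 0 members. At an unadjusted p under 0.05 it held 205 genes and 0 members, with the smallest p of a member at 0.119 for Mrpl43.

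In control hearts 1 of 76 members passed the limma test for a 24 h rhythm, against 2.80% of all genes. At an unadjusted p under 0.05 there were 3 members, and 1486 of all 10599 genes. The median amplitude (mean of the fitted curve to its peak, log2) was 0.07 for the members and 0.09 for all genes. In cK15 hearts 0 members passed, against 1.08% of all genes, with a median amplitude of 0.06 against 0.08. There 2 members and 949 of all 10599 genes were at an unadjusted p under 0.05.

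The 1 rhythmic call was Mrpl23, the member of lowest level. Its control values at 12 am were 2.04, 2.64 and 0.749 FPKM. The libraries of 4 am had 3.10, 1.80 and 3.49 FPKM, and those of 8 am had 3.97, 2.27 and 2.96. At 12 pm they were 2.77, 2.77 and 1.93 FPKM. They reached 2.98, 1.39 and 0.749 FPKM at 4 pm, with 0.795, 1.42 and 0 left at 8 pm. Means were highest at 8 am and lowest at 8 pm, and the libraries of single times spread widely. The fitted amplitude was 0.59 (SE 0.14) with a peak at 7.67 h after midnight (limma adjusted p = 0.0499). The call ended without control replicate 2 (0.61), 3 (0.78) or 4 (0.37), with a pseudocount of 0.1, with no filter on low values and in 5 other settings. In cK15 the amplitude of Mrpl23 was 0.19 (SE 0.21).

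In cK15 the smallest rhythm p-values were those of Mrpl43, Mrps26 and Mrpl38, a protein of the central protuberance, with amplitudes of 0.19, 0.19 and 0.14 and limma adjusted p of 0.487, 0.522 and 0.563. The difference in rhythm between genotypes was called for 0% of all genes and so for 0 members, and at an unadjusted p under 0.05 for 291 genes and 0 members. The smallest p of a member for that difference was 0.0609, for Mrpl50, followed by Mrpl43 and Mrpl38 (limma adjusted p = 1 for each of the 3).

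Between library sets the members spread more widely than between genotypes. The log2 difference of the 12 libraries that stand apart minus the other 24 ran from -0.50 to 1.03, with a median of -0.02 against 0.08 for all genes. It was above 0.3 for 13 of the 76 members and below -0.3 for 10. Of all 10599 genes, 1869 were above 0.3 and 750 below -0.3. The sets did not overlap for 7 members (9.21%), against 5.43% of all genes. These were Mrps14, Mrpl17, Mrpl41 and Mrpl35, higher in the 12, and Mrps5, Mrpl48 and Mrps9, lower in the 12.

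**Figure D5:**
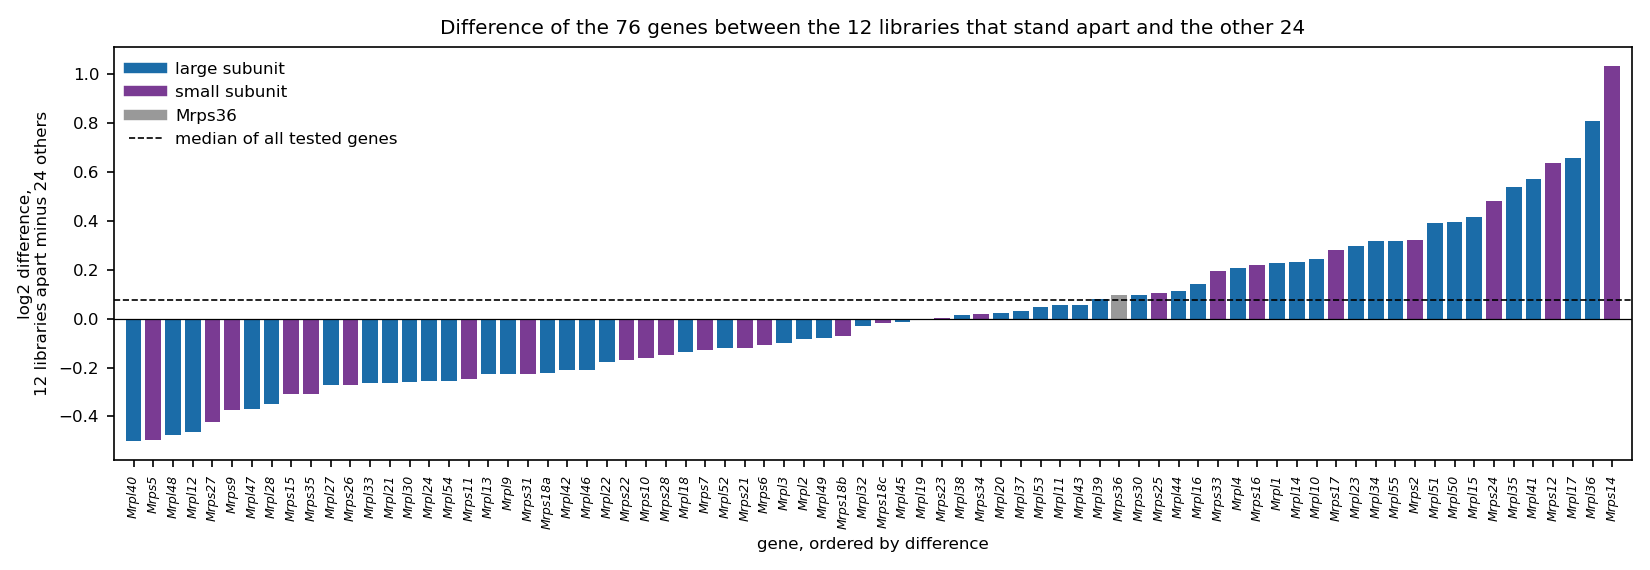
Log2 difference of each of the 76 genes between the 12 libraries that stand apart and the other 24, with the median of all tested genes as a dashed line. Mrps14 is highest at 1.03, and Mrpl40 and Mrps5 are lowest at -0.50.

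Mrps14, a small-subunit homologue of bacterial S14, was at 26.5 ± 2.84 FPKM in the 12 (SD, range 21.6 to 31.7) and 12.5 ± 2.18 FPKM in the 24 (SD, range 7.85 to 17.1). Mrps5 was at 33.2 ± 1.87 FPKM in the 12 and 47.7 ± 7.15 FPKM in the 24 (SD). Since each group holds 1 of the 12, the sets do not line up with genotype or time. Within the sets the called members kept the sign of their genotype difference: Mrps23 was at 0.27 in the 24 and 0.29 in the 12, Mrpl3 at 0.14 and 0.15, and Mrpl55 at -0.44 and -0.50. Mrpl33 was at -0.23 and -0.22, Mrpl46 at 0.20 and 0.20, Mrps18a at 0.21 and 0.31, and Mrpl21 at 0.26 and 0.17. These members were called on the same libraries that the sets divide, so the kept sign is no separate check of the calls. With the set as a term in the fit, 18 members were called, 15 higher and 3 lower. The share of all genes called in that fit is not given here, so the 18 are not read as a trait of the members.

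The rest of the mitochondrial translation pathway was read from gene lists. Of 7 mitoribosomal proteins with other symbols, such as Dap3 and Ptcd3, 0 were called and 6 had positive estimates, from -0.04 to 0.08 and 1 at an unadjusted p under 0.05. Of 15 translation factors 1 was called: Tufm, the elongation factor that brings aminoacyl-tRNA to the ribosome, rose by 0.19 in log2 (SE 0.041; limma adjusted p = 0.00216), with means of 63.0 ± 5.21 and 71.7 ± 5.65 FPKM (SD, n = 18 each). The call of Tufm ended with each genotype's libraries of a number as 1 series, as did those of Gtpbp5, Tfb1m and Ppargc1a below. Of the 15 translation factors 12 were positive. Of 18 mitochondrial aminoacyl-tRNA synthetases 0 were called, with 2 at an unadjusted p under 0.05 and a median of -0.01.

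Of 20 assembly factors 2 were called, both lower. The GTPase Gtpbp5, which acts late in large-subunit assembly, changed by -0.21 in log2 (limma adjusted p = 0.0137), with means of 23.01 ± 2.63 FPKM in control and 19.7 ± 2.48 in cK15 (SD, n = 18 each). Tfb1m, which methylates the ribosomal RNA of the small subunit, changed by -0.19 (limma adjusted p = 0.0462), with means of 12.9 ± 1.75 and 11.2 ± 1.75 FPKM (SD, n = 18 each). The call of Gtpbp5 ended without cK15 replicate 1 (-0.17) or control replicate 4 (-0.20) and without the 12 libraries that stand apart (-0.17). That of Tfb1m ended in 10 of 17 settings, among them without cK15 replicates 1 (-0.15) and 4 (-0.17), control replicates 2 (-0.15) and 4 (-0.17) and the 12 libraries (-0.12).

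The list for mitochondrial transcription and RNA stability also held genes of mitochondrial DNA replication, such as Polg and Polg2. Of its 14 tested genes 2 were called, both lower and in each of 17 settings. Hsd17b10, a dehydrogenase of isoleucine breakdown that also serves as a subunit of mitochondrial RNase P, had means of 175.2 ± 18.4 FPKM in control and 122.5 ± 10.3 in cK15 (SD, n = 18 each), a log2 difference of -0.51 (SE 0.046; limma adjusted p = 9.47e-10). All 18 cK15 libraries lay below all 18 control libraries. Polg, the mitochondrial DNA polymerase, had means of 19.6 ± 1.98 and 16.1 ± 1.91 FPKM (SD, n = 18 each), a log2 difference of -0.27 (limma adjusted p = 0.00142). Of 9 regulators of nuclear genes for mitochondria 1 was called: Ppargc1a, a coactivator of these genes, at 0.14 (limma adjusted p = 0.0430), a call that ended in 8 of 17 settings. Among these were cK15 replicates 1 (0.10) and 3 (0.15), control replicates 3 (0.12) and 4 (0.13) or the 12 libraries that stand apart (0.13) left out. Nrf1, Gabpa and Yy1, whose motifs were searched above, stood at -0.03, 0.10 and -0.07 and were not called. The mitochondrial ribosomal RNAs and messages were not analysed here.

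Among cytosolic ribosomal proteins, the counterpart outside the mitochondrion, 8 of 78 were called (10.3%), 1 higher and 7 lower, and 16 of 78 estimates were positive with a median of -0.10. Among genes of respiratory complex I, several of whose core subunits the mitochondrial ribosome makes, 2 of 37 were called (5.41%), both higher, and 30 were positive with a median of 0.04. Of all tested genes 11.2% were called and 45.8% were positive, with a median of -0.01. The median of the mitochondrial ribosomal proteins, 0.06, lay on the side of complex I, but it was 0.01 without cK15 replicate 3. The other lists were not read in that setting. The differences between these lists were not tested.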

How the data were processed

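The authors deposited FPKM per gene symbol and library, in a table for each genotype. The submitters' processing notes name GSNAP, HTSeq and the build mm10; which program computed FPKM, on which annotation, is not stated there. Since FPKM is relative to the library total, a few abundant genes can shift all others. Depth is unknown, so no counting error is given.

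Values of log2(FPKM + 1) were fitted with limma 3.58.1 (R 4.3.3), keeping genes whose mean FPKM reached 1, with trended and robust variance and Benjamini-Hochberg adjustment over all genes tested at 0.05. Genotypes were compared with 12 group means. Rhythm used a cosine and sine of 24 h. The fits were run on simulated data in which each library was drawn independently. The simulation lacks the correlation of same-numbered libraries given below, so it cannot show how the fits behave under it. The labels do not tie libraries to animals, and the p-values cover only the spread between libraries, which may be technical.

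The members and gene lists were chosen with earlier results of these data known. Members are named by a rule: called members, the 4 highest and 4 lowest levels, the 3 smallest p-values where a time or rhythm test called none, the lists of positions and up to 3 called genes of each pathway list; members next to the threshold and those that separate the library sets were added after their values were seen. Pairing was checked on deviations from group means: same-numbered libraries of a time correlated across genotypes in 12 of 12 pairs (r from 0.157 to 0.508), and within a genotype 70 of 90 pairs exceeded 0.1. Alternatives were the pseudocount, the filter, the scaling, the variance model, the library set, each replicate left out and blocks. Coordinates are from GENCODE on GRCm38 and promoters from RefSeq on GRCm38.p6.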

Additional observations from a re-analysis of the deposited data

How the results depend on the processing

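The averaged genotype count, 7 members, was within 1.5 times of itself in 11 of 17 other settings. It was 18 with a term for the library set, 11 with a replicate block of numbers shared between genotypes, 16 with a replicate block of numbers paired at each time (chosen after seeing the data) and 1 with a replicate block of each genotype's own series, and it ran from 2 to 9 over the replicates left out. The causes were not tested, and the share of all genes called in each of these settings is not given here. At single times 0 members were called, except 1 at 4 am and 1 at 4 pm with the library set term, 1 at 8 pm with the paired block, and from 0 to 1 at 4 pm with replicates left out. The control rhythm count, 1, became 0 with a pseudocount of 0.1, no filter on low values, a mean FPKM of at least 5 (which removes Mrpl23), quantile normalization, no variance trend, without the libraries that stand apart, with the times as separate means and with any control replicate left out (0 to 0). A block of replicate number kept it; within a genotype 70 of 90 same-numbered pairs, not all, correlated above 0.1 (median r 0.282, against -0.221 for pairs of other numbers). Counts for rhythm in cK15 and for its difference stayed at 0 in 13 and 16 settings. Of estimates that never passed the threshold, the sign turned for Mrps14 without the libraries that stand apart (-0.0063). With single replicates left out, it turned for Mrps14 (range -0.24 to 0.29), Mrpl44 (-0.072 to 0.14), Mrps22 (-0.021 to 0.13) and Mrpl12 (-0.0099 to 0.32). Precision at low FPKM is limited by an unknown depth.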
